A study of Mus musculus with 12 samples.

Results

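Genes of the bone morphogenetic protein (BMP) response were followed in mouse germ cells and in their cultured counterparts: the targets Id1, Id2, Id3, Msx1, Msx2 and Gata2, the type I receptor gene Bmpr1a and the signal transducer genes Smad1 and Smad5. They were taken by symbol, and all 9 had a row among the 26218 gene rows of the deposited table. RNA was measured by sequencing of transcript 3′ ends in 12 libraries, 2 in each of 6 groups, and values are RPM, reads scaled to the total of the library's reads in genes. The cultured groups, d4c3, d4c5 and d4c7, were primordial germ cell-like cells (PGCLCs). They were C57BL/6 cells carrying Blimp1-mVenus and Stella-ECFP reporters, induced for 4 days from epiblast-like cells in a medium that held BMP4, LIF, SCF and EGF, sorted, and grown for 3, 5 or 7 further days on m220 stromal feeder cells. The embryonic groups were primordial germ cells (PGCs) of embryonic day 9.5 (E9.5), not divided by sex, and germ cells of E12.5 from either sex. All 3 were of mixed ICR and C57BL/6 background (1:1), carried a Stella-EGFP reporter and were sorted by EGFP. Cultured libraries were amplified from 10 ng of RNA and embryonic libraries from 1 ng. Culture and embryo therefore cannot be told apart from strain, reporter, sort and RNA input.

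BMP ligands bind pairs of type I and type II receptors, and the activated receptors phosphorylate Smad1 and Smad5, which enter the nucleus with Smad4 and switch target genes on. Id genes are among the most direct of these targets. Their products are helix-loop-helix proteins without a DNA-binding region that hold E proteins away from DNA. Msx1 and Msx2 encode homeodomain repressors, and Gata2 encodes a zinc finger transcription factor best known from blood and endothelium. In the mouse embryo BMP4 is needed to specify PGCs, and BMP is a known inducer of the oogenic programme in germ cells.

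The depth estimated from the steps of the values was 2219175 to 5817990 reads in genes per library, so that a value of 0 allows up to 0.517 to 1.36 RPM, which is 3 reads. A limma model over all 12 libraries on log2(RPM + 1) tested the 10856 genes with at least 5 RPM in at least 2 libraries, and a gene with an adjusted p under 0.05 was called. Of the 9 genes 8 were tested. Msx1 was not, and Id1 passed through its E9.5 and E12.5 female libraries alone. Labels do not say that the libraries of a group came from separate cultures or animals, so the spread behind each p-value is that of these libraries and may be technical. The root mean square difference (log2) between the libraries of a group was 0.42 to 0.56 for cultured cells and 0.33 to 0.40 for embryonic ones, and the model pools this spread. Germ cell markers, 10 genes that include Dppa3, Ddx4 and Pou5f1, summed to between 2629 and 7660 RPM in every library, and in no group was any of them at 0 in both libraries.

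Bmpr1a and Smad5, which act in receiving the signal, were present in every group at similar levels. Bmpr1a (NCBI gene 12166, GRCm38.p6 chromosome 14, 34411061 to 34503336) encodes the BMP type I receptor ALK3. It was at 60.6 and 78.1 RPM in d4c3, 67.4 and 80.0 RPM in d4c5, and 73.4 and 76.5 RPM in d4c7. In the embryo it was at 68.0 and 74.5 RPM at E9.5, 81.9 and 88.2 RPM in males, and 87.6 and 114 RPM in females. The culture and E9.5 libraries overlapped with one another, and the female libraries were the highest by their mean. The female mean of 101 ± 18.4 RPM (SD, n = 2 for every group value) was above the E9.5 mean of 71.3 ± 4.61 RPM by 0.48 ± 0.16 (SE) on the log2 scale (limma, adjusted p = 0.0331). Without female replicate 2 that call was lost (adjusted p = 0.284).

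Smad5 (NCBI gene 17129, chromosome 13, 56703010 to 56742378) was at 36.4 and 38.6 RPM in d4c3, 31.2 and 35.2 RPM in d4c5, and 24.3 and 30.7 RPM in d4c7. It was at 37.5 and 29.0 RPM at E9.5, 38.1 and 39.4 RPM in males, and 41.8 and 35.2 RPM in females. The d4c7 libraries were at the low end, and the lower E9.5 library lay between them. No comparison of Smad5 passed the test. Its female minus male difference was -0.01 on the log2 scale with a 95% interval from -0.43 to 0.40, and that of Bmpr1a was 0.23 with an interval from -0.12 to 0.58.

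Smad1 (NCBI gene 17125, chromosome 8, 79338395 to 79399428) was the exception among the transducers, with its lowest level in females. It was at 1.82 and 2.01 RPM in females, against 5.94 and 7.83 RPM in males and 7.35 and 4.01 RPM at E9.5. In culture it was at 9.39 and 4.88 RPM in d4c3, 5.84 and 9.49 RPM in d4c5, and 7.85 and 9.48 RPM in d4c7. Both female libraries lay below all 10 others. The female minus male difference was -1.43 ± 0.38 on the log2 scale (limma, adjusted p = 0.0258). It lost the call without any single library of the 4 (adjusted p = 0.077 to 0.167), and female levels were not far above the value that 3 reads give.

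**Figure D1:**
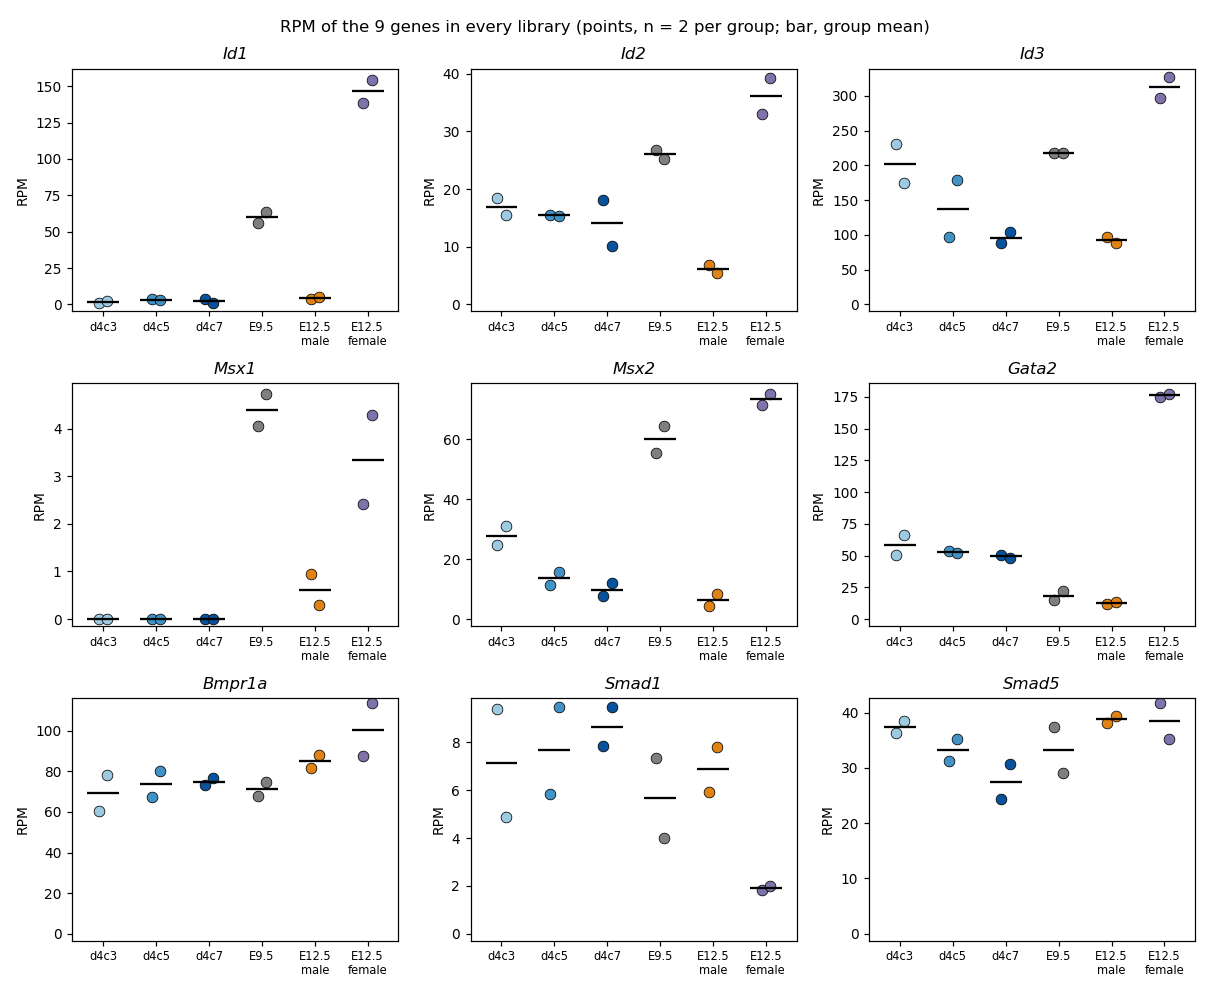
RPM of the 9 genes in each of the 12 libraries, by group, on linear axes that start at 0 and differ between panels; points are libraries and the bar is the mean of the 2 libraries. Id1, Id2, Id3, Msx2 and Gata2 have their highest points in E12.5 females and low points in E12.5 males, whereas Bmpr1a and Smad5 are nearly level.

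To show what the promoters of targets that were all higher in E12.5 females than in males hold, the 250 bases before the annotated start were read for Id2, Id3, Msx2 and Gata2 from RefSeq (GRCm38.p6), in the direction of transcription, 5′ to 3′. Capitals mark every match, on either strand, to GGCGCC or GGAGCC, GC-rich letters that Smad1 and Smad5 are known to bind, or to GTCTG, the Smad box. GGAGCC is GGCTCC and GTCTG is CAGAC when read from the other strand, and neighbouring motifs can share no more than an end base.
Id2 (chr12:25096093-25096342, minus strand): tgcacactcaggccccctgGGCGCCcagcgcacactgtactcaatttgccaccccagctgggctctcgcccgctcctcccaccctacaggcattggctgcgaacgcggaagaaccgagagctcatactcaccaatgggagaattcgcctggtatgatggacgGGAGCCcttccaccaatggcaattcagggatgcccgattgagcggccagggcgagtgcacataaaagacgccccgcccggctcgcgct
Id3 (chr4:136143572-136143821, plus strand): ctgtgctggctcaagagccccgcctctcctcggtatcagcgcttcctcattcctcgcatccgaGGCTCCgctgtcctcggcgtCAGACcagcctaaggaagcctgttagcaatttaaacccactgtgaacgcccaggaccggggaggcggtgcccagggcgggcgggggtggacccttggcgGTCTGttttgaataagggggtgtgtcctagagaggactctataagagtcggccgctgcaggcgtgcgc
Msx2 (chr13:53472781-53473030, minus strand): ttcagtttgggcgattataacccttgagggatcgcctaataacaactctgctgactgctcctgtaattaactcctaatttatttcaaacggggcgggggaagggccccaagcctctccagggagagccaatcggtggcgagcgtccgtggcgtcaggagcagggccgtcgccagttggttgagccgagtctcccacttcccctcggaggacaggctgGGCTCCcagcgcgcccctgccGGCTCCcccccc
Gata2, second annotated start (chr6:88198414-88198663, plus strand): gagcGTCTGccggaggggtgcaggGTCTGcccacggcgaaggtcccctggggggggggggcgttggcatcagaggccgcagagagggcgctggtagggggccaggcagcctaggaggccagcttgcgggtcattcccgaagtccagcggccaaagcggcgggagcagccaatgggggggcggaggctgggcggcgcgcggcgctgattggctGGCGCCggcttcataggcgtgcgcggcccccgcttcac
Id2 held GGCGCC 231 bases before its start and GGAGCC 88 bases before it. Id3 held GGAGCC, on the other strand, at 187 bases, and GTCTG at 167 and 68 bases. Msx2 held GGAGCC at 33 and 12 bases, both on the other strand. Gata2 held GGCGCC at 38 bases before its second start and GTCTG at 246 and 226 bases, and no match before its first start. Across RefSeq's promoter table, 32851 windows of the same length, 9.59% held GGCGCC, 26.0% held GGAGCC, 42.2% held GTCTG and 60.9% held at least 1 of them. Of the 9 genes 8 had an entry, with 11 windows in all, and Id1 had none, so its promoter was not read. Of the 11 windows 7 held a motif, which is close to the share of all windows.

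The sharpest contrast was between the sexes at E12.5, a comparison that asks how female and male germ cells of the early gonad differ. Female germ cells held far more Id1, Id2, Id3, Msx2 and Gata2 RNA than male germ cells, from 3.39-fold for Id3 to 33.0-fold for Id1. Of the 8 genes tested 5 were called higher, against 6.68% of all genes tested, and 1, Smad1, was called lower, against 5.27%. The median female minus male difference of the 8 was 2.07 on the log2 scale, against -0.0020 over all genes. In bulk RNA, fewer cells that hold a transcript and less of it in each cell cannot be told apart.

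Id1 (NCBI gene 15901, chromosome 2, 152736251 to 152737410), the Id gene most used as a readout of BMP signalling, was at 139 and 154 RPM in females and at 4.06 and 4.82 RPM in males. The groups were far apart, with a log2 difference of 4.76 ± 0.38 (limma, adjusted p = 3.25e-06). Id2 (NCBI gene 15902, chromosome 12, 25093799 to 25096092) was at 33.0 and 39.2 RPM in females and at 6.88 and 5.42 RPM in males. Its lower female library was still above both male ones, and the log2 difference was 2.38 ± 0.27 (adjusted p = 9.62e-05). Id3 (NCBI gene 15903, chromosome 4, 136143822 to 136145392) was at 297 and 327 RPM in females and at 96.3 and 87.6 RPM in males. The libraries again did not overlap, and the log2 difference was 1.75 ± 0.22 (adjusted p = 0.000191).

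Msx2 (NCBI gene 17702, chromosome 13, 53466881 to 53472780) was at 71.5 and 75.2 RPM in females and at 4.38 and 8.43 RPM in males. That is 11.5-fold by the means, with a log2 difference of 3.38 ± 0.29 (limma, adjusted p = 7.37e-06). Gata2 (NCBI gene 14461, chromosome 6, 88193891 to 88207032) was at 175 and 178 RPM in females, which agreed closely, and at 11.9 and 13.5 RPM in males. The female mean was 13.9-fold the male mean, and the log2 difference was 3.70 ± 0.20 (adjusted p = 3.72e-08). Msx1, the paralogue of Msx2 (NCBI gene 17701, chromosome 5, 37820491 to 37824585), was low in all libraries: 2.43 and 4.27 RPM in females, 0.938 and 0.301 RPM in males and 4.04 and 4.72 RPM at E9.5. Male levels of Msx1 were no higher than what 3 reads give, so no fold was computed.

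These 5 calls held with each library left out in turn and in every other fit tried, with adjusted p of at most 0.00608 when a library was left out. Markers of gonadal somatic cells, the cells that surround germ cells at this stage, did not rise with them. The 8 marker genes, all with a row, summed to 4.70 to 7.29 RPM in females and to 9.63 to 11.9 RPM in males. Amh and Cyp11a1 were at 0 in both sexes, and Sox9 was at 0 in both female libraries. Star was the largest part of each sum and overlapped, at 3.03 and 5.53 RPM in females and 7.81 and 3.91 RPM in males. Sums this low compare the somatic content of the sexes poorly, and its part in the result was not tested. Blood and endothelium markers, the lineages in which Gata2 is best known, summed to 13.2 to 18.0 RPM in females and 12.3 to 16.7 RPM in males. Kdr, Cdh5, Ptprc and Tal1 of that list were at 0 in all 4 libraries. Hindgut and endoderm markers were the list that was higher in females, at 9.56 to 11.6 RPM against 1.88 to 3.91 RPM, and their part in the result was not tested.

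**Figure D2:**
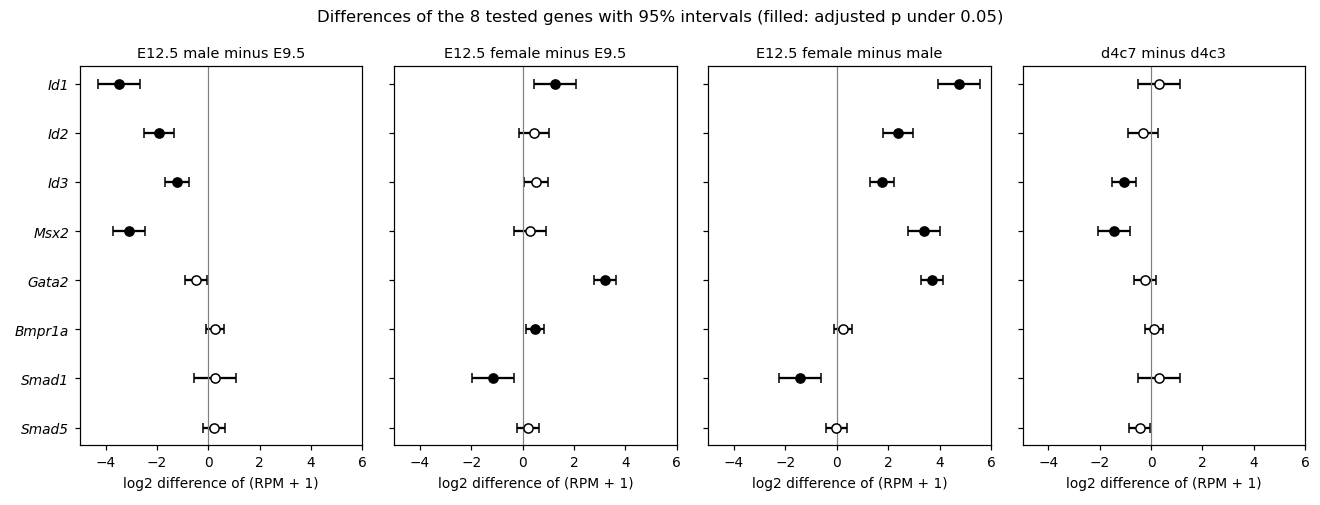
Differences of log2(RPM + 1) between groups for the 8 tested genes, with 95% intervals from the limma model; filled points have an adjusted p under 0.05 and the 3 embryonic panels share libraries. The 5 targets lie to the right of 0 between the sexes, and in males against E9.5 the Id genes and Msx2 lie to the left while Gata2 is not called.

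Set against PGCs of E9.5, the genes that set the sexes apart differed in their E9.5 level. The Id genes and Msx2 were already high at E9.5 and were lower in E12.5 males, whereas Gata2 was low at E9.5 and was high in E12.5 females. Both comparisons use the E9.5 libraries, and the female minus male comparison uses the E12.5 ones again, so the 3 are not independent. The E9.5 group is not divided by sex. In males, 4 of the 8 genes were called lower, against 17.6% of all genes, and 0 higher, against 20.0%, with a median of -0.86 against 0.05 over all genes. In females 3 were called higher, against 20.4%, and 1 lower, against 17.1%, with a median of 0.47 against 0.04.

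At E9.5 Id1 was at 56.2 and 63.5 RPM, between the male and the female libraries and apart from both. It was 13.5-fold lower in males by the means (log2 difference -3.48 ± 0.38, limma, adjusted p = 1.32e-05) and 2.45-fold higher in females (1.28 ± 0.38, adjusted p = 0.0173). The call in females was lost with any 1 of the 4 libraries left out (adjusted p = 0.0657 to 0.112). Id2 was at 26.8 and 25.2 RPM at E9.5 and was lower in males by 1.93 on the log2 scale (adjusted p = 0.000112). Its female difference from E9.5 was 0.45 ± 0.27 and did not pass (adjusted p = 0.21). Id3 was at 217 RPM in both E9.5 libraries, fell by 1.23 in males (adjusted p = 0.000612) and had a female difference of 0.52 ± 0.22 (adjusted p = 0.0765).

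Msx2 was at 55.5 and 64.5 RPM at E9.5, close to but below the female libraries, with a female difference of 0.29 (95% interval -0.34 to 0.92, limma, adjusted p = 0.468). In males it was 9.37-fold lower (log2 difference -3.10 ± 0.29, adjusted p = 4.07e-06). For Gata2 the larger difference was in females. It was at 14.7 and 22.2 RPM at E9.5, and the female mean was 9.56-fold higher, with a log2 difference of 3.22 ± 0.20 (adjusted p = 1.13e-07). The male difference of -0.48 did not pass (adjusted p = 0.0722). Smad1 was lower in females than at E9.5 by 1.15 on the log2 scale (adjusted p = 0.0291, and 0.24 without E9.5 replicate 1).

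Other cells and library preparation moved with the stage. Blood and endothelium markers summed to 3794 to 4275 RPM at E9.5 and never to more than 26.2 RPM in the other groups. Nearly all of the E9.5 sum was globin RNA: Hbb-y averaged 1767, Hba-x 1215, Hbb-bh1 644 and Hba-a1 396 RPM. Of the endothelial markers, Kdr was at 3.68 and 2.36 RPM, Tie1 at 1.47 and 3.07 RPM and Cdh5 at 0 in both E9.5 libraries. Tek went the other way, at 2.21 and 1.18 RPM at E9.5 against 9.78 to 24.8 RPM in culture. Mesoderm and mesenchyme markers, 8 of 9 with a row, summed to 106 to 114 RPM at E9.5 and to 7.10 RPM or less elsewhere, and hindgut and endoderm markers to 33.1 to 39.6 RPM. The sum of the ERCC spike-in RNAs was 628 to 1372 RPM at E9.5, 12107 to 16494 RPM at E12.5, and 59.6 to 72.7 RPM in the 5 cultured libraries that had any. How much of the E9.5 levels of Id1, Id2, Id3, Msx1 and Msx2, which many embryonic tissues express, comes from such cells was not tested. Gata2 was at 14.7 and 22.2 RPM in the E9.5 libraries, and the part of such cells in that level was not tested either.

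In culture, the question was whether the response changes as PGCLCs expand. Id3 and Msx2 were highest at culture day 3 and lower by day 7, Gata2 and Id2 showed no called change, and Id1 was at most 3.53 RPM and Msx1 was listed at 0. From d4c3 to d4c7, 0 of 8 genes were called higher, against 1.67% of all genes, and 2 lower, against 1.08%, with a median of -0.26 against 0.02 over all genes. From d4c3 to d4c5 limma called 0 of the 8, against 0.0829% of all genes called in either direction. The model called 9 genes in all at that step, with 967 at an unadjusted p under 0.05.

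Id3 was at 231 and 174 RPM in d4c3, 96.2 and 179 RPM in d4c5, and 87.6 and 104 RPM in d4c7. The d4c7 libraries lay below both d4c3 libraries, and those of d4c5 spanned the gap. The change from d4c3 to d4c7 was -1.06 ± 0.22 on the log2 scale (limma, adjusted p = 0.0209). Msx2 was at 24.6 and 31.1 RPM in d4c3, 11.3 and 15.8 RPM in d4c5, and 7.59 and 12.0 RPM in d4c7. Both later groups lay below d4c3, and the change to d4c7 was -1.44 ± 0.29 (adjusted p = 0.02). Its change to d4c5 had a 95% interval from -1.63 to -0.37 and did not pass (adjusted p = 0.276). Leaving out d4c3 replicate 1 ended the call of Id3 (adjusted p = 0.234), as did leaving out d4c7 replicate 1 (0.055). That of Msx2 ended when any of the 4 libraries but d4c7 replicate 2 was left out, with an adjusted p of 0.107 lacking d4c3 replicate 1, 0.136 lacking d4c3 replicate 2 and 0.0721 lacking d4c7 replicate 1. Neither passed without a filter on low genes (0.125 and 0.0942), without a mean-variance trend (0.0992 and 0.0535) or in a fit of only the 4 libraries compared (0.25 and 0.304).

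Gata2 was at 50.5 and 66.1 RPM in d4c3, 53.8 and 52.4 RPM in d4c5, and 50.3 and 48.3 RPM in d4c7, a narrow range in all 6 libraries. Id2 was at 18.4 and 15.5 RPM in d4c3, 15.6 and 15.4 RPM in d4c5, and 18.1 and 10.2 RPM in d4c7, and the groups overlapped. Id1 was at 0.782 and 2.66 RPM in d4c3, 3.51 and 3.16 RPM in d4c5, and 3.53 and 1.21 RPM in d4c7. The value in d4c3 replicate 1 was below the level of 3 reads and the other 5 libraries were above it, and limma called no change of Id1 (adjusted p = 0.587 for d4c5 and 0.74 for d4c7 against d4c3). Msx1 was listed at 0 in all 6 cultured libraries, which allows up to 0.517 to 1.36 RPM.

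PGCLCs were then set beside the germ cells of the embryo. Early in culture their Id3 levels overlapped those of E9.5 PGCs, and they held less Id1 and Msx2 and more Gata2. In d4c3 against E9.5, 1 of 8 genes was called higher, against 13.4% of all genes, and 2 were called lower, against 10.3%, with a median of -0.08 against 0.04. Id1 was lower by 4.57 ± 0.38 on the log2 scale (limma, adjusted p = 2.83e-06) and Msx2 by 1.08 ± 0.29 (adjusted p = 0.0158, and 0.131 without E9.5 replicate 2). Gata2 was 3.16-fold higher in d4c3, at 58.3 ± 11.1 RPM against 18.4 ± 5.28 RPM (log2 difference 1.62 ± 0.20, adjusted p = 5.67e-05). The Id3 difference was -0.12, with a 95% interval from -0.59 to 0.35.

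After 7 days, Id3 and Msx2 overlapped the levels of male germ cells, and Gata2 and Id2 were above them. Id1, at 3.53 and 1.21 RPM, lay below both male libraries, at 4.06 and 4.82 RPM. Its difference of -0.78 was not called (95% interval -1.60 to 0.04, limma, adjusted p = 0.123). All 5 tested targets were below the female levels. Against males 2 of 8 genes were called higher, against 19.0% of all genes, and 0 lower, against 17.6%, with a median of 0.18 against -0.0053. They were Gata2, 3.88-fold higher in d4c7 (log2 difference 1.88 ± 0.20, limma, adjusted p = 1.12e-05), and Id2, 2.30-fold higher (1.04 ± 0.27, adjusted p = 0.00925, and 0.113 without d4c7 replicate 1). The Id3 difference was 0.06 with a 95% interval from -0.41 to 0.53, and that of Msx2 was 0.57 with an interval from -0.06 to 1.20. Against females 5 of 8 were called lower, against 19.0% of all genes, and 1 higher, against 19.8%, with a median of -1.52 against -0.0054. The differences were -5.54 for Id1, -2.82 for Msx2, -1.82 for Gata2, -1.69 for Id3 and -1.34 for Id2, with adjusted p from 4.48e-07 to 0.00173, and Smad1 was higher by 1.73 ± 0.38 (adjusted p = 0.00297).

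Ordered by their means, the groups formed the same series for Id2, Id3 and Msx2, and other series for Id1 and Gata2. Id1 ran from females through E9.5 to males and then the 3 cultured groups, and the cultured groups overlapped with one another. Id2, Id3 and Msx2 ran from females through E9.5 and d4c3, d4c5 and d4c7 to males. For Id2 d4c3, d4c5 and d4c7 did not separate, and for Id3 each neighbour from E9.5 down to males overlapped. Gata2 ran from females through the 3 cultured groups to E9.5 and then males, with the culture group d4c3 overlapping d4c5.

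The rest of the pathway was read from lists of ligands, receptors, Smads, inhibitors, antagonists, other induced genes, E proteins and paralogues of Msx and Gata genes. They hold 56 further genes, all with a row, of which 31 were tested. Between the sexes 6 of the 31 were called higher in females, against 6.68% of all genes, and 4 lower, against 5.27%. The 6 include Hand1 and Gata3, which no male library held at 5 RPM. The median difference of the 31 was 0.09 (log2). In males against E9.5, 7 were higher and 6 lower, against 20.0% and 17.6% of all genes. In females against E9.5, 7 were higher and 4 lower, against 20.4% and 17.1%. From d4c3 to d4c7 the model called 1 higher and 1 lower, against 1.67% and 1.08%, and from d4c3 to d4c5 it called 0, against 0.0829%. In d4c3 against E9.5, 3 were higher and 5 lower, against 13.4% and 10.3%. In d4c7, 4 were higher and 10 lower than in males, against 19.0% and 17.6%, and 5 were higher and 10 lower than in females, against 19.8% and 19.0%.

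Other BMP-induced genes were tested in 8 of 10 cases. In females against males 4 were called higher and 1 lower, against 6.68% and 5.27% of all genes. Of the 4, Hand1 and Gata3 reached 5 RPM in no male library and entered the test through other groups, females among them. Zglp1, which encodes a GATA-type zinc finger regulator of the oogenic programme, was at 62.5 and 58.6 RPM in females, 16.3 and 12.6 RPM in males and 2.57 and 3.54 RPM at E9.5. Cultured libraries held at most 2.71 RPM of it. The 3 embryonic groups were apart, and the female minus male difference was 2.00 ± 0.37 on the log2 scale (limma, adjusted p = 0.00311). Unlike Msx2 and the Id genes, Zglp1 was also higher in males than at E9.5, by 1.93 ± 0.37 (adjusted p = 0.00103). Zglp1 entered the test through its E12.5 libraries alone, since no other library held 5 RPM of it. Smad6, a feedback inhibitor that BMP induces, was at 41.2 and 36.5 RPM in females and at 25.6 and 19.0 RPM in males (adjusted p = 0.0494, and 0.302 without male replicate 2).

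Hand1 and Gata3 were the other genes of that list that were higher in females, both below 10 RPM by their means and named here after their values were seen. Hand1 encodes a helix-loop-helix factor of mesoderm and trophoblast. It was at 6.06 and 11.3 RPM in females, 0.313 and 1.20 RPM in males and 7.35 and 4.95 RPM at E9.5. Gata3, a paralogue of Gata2, averaged 4.59 ± 0.799 RPM in female and 0.301 ± 0.426 RPM in male germ cells. Hand1 entered the test through both female libraries and E9.5 replicate 1 alone. Gata3 entered through female replicate 1 and d4c7 replicate 1 alone. Hey1, a repressor that both Notch and BMP induce, went the other way. Female libraries held 86.4 and 99.8 RPM and male libraries 152 and 138 RPM, a log2 difference of -0.64 ± 0.14 (limma, adjusted p = 0.00864, and 0.0946 without female replicate 1). In culture Hey1 fell from 75.9 and 79.4 RPM in d4c3 to 44.0 and 39.8 RPM in d4c7 (-0.88 ± 0.14, adjusted p = 0.00517, and 0.0605 without d4c3 replicate 1). Id4, the fourth Id gene, was at 19.4 and 30.9 RPM in females, 8.44 and 12.3 RPM in males and 10.3 and 11.6 RPM at E9.5. Its female minus male difference did not pass (limma, adjusted p = 0.072). Its female difference from E9.5 was called (limma, adjusted p = 0.0442), but 7 of 12 other settings lost that call. The log2 difference ran from 0.78 to 1.42 over these settings. With both libraries of each group kept, the adjusted p still reached 0.107. In d4c3 Id4 was at 1.56 and 1.33 RPM, below E9.5 by 2.28 on the log2 scale (limma, adjusted p = 0.00101). Id4 entered the test through its embryonic libraries alone, since no cultured library held 5 RPM of it.

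Among 10 ligand genes Bmp4 and Bmp7 were tested and the other 8, Bmp2 and Bmp8b among them, were too low. Bmp4 was highest in culture, at 34.1 and 19.5 RPM in d4c3, 34.1 and 15.8 RPM in d4c5, and 29.8 and 12.0 RPM in d4c7. It was at 3.68 and 5.46 RPM at E9.5, 8.79 and 9.03 RPM in males, and 4.24 and 2.26 RPM in females. In each cultured group the replicate 1 library was the higher. The d4c3 level was above E9.5 by 2.29 ± 0.45 on the log2 scale (limma, adjusted p = 0.00221), and the d4c7 level was above the female one by 2.27 ± 0.45 (adjusted p = 0.00144). Markers of fibroblasts and stromal cells such as the feeder layer, 8 genes that all had a row, summed to 316 and 368 RPM in d4c3, 259 and 401 RPM in d4c5, and 137 and 423 RPM in d4c7. Most of that sum was Fn1, which embryonic libraries held at 269 to 364 RPM. At 432.8 to 467.6 RPM the sum was higher at E9.5 than in any cultured library. In each cultured group Fn1 and the sum were lower in replicate 1, where Bmp4 was higher, but Col3a1 and Dcn were higher there. In d4c5 replicates 1 and 2, Col3a1 was at 39.7 and 0.904 RPM and Dcn at 39.7 and 1.36 RPM. Col1a1 and Col1a2 were higher in replicate 1 of d4c5 and d4c7 but not of d4c3. Lum, Postn and Thy1 were at most 1.56 RPM in culture. The part of feeder RNA in the Bmp4 level was not tested. Bmp7 was lower in females, at 28.5 and 25.6 RPM, than in males, at 45.0 and 57.5 RPM (-0.89 ± 0.21, adjusted p = 0.0147, and 0.149 without male replicate 2).

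Of the receptor genes other than Bmpr1a, the type I receptor gene Acvr1 and the coreceptor gene Rgma were higher in females than in males. Acvr1 was at 28.8 and 29.2 RPM in females and at 7.81 and 14.8 RPM in males (log2 difference 1.35 ± 0.38, limma, adjusted p = 0.0345, and 0.272 without male replicate 1). Rgma was at 13.9 and 17.6 RPM in females, 7.81 and 4.21 RPM in males and 24.6 and 25.9 RPM at E9.5. Its sex difference was 1.30 ± 0.28 (adjusted p = 0.00819, and 0.0969 without male replicate 2), and it was lower in males than at E9.5 by 1.96 (adjusted p = 0.000122). Smad4, the shared partner of the receptor Smads, passed the test in no comparison and had group means from 61.8 to 78.5 RPM.

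Inhibitors inside the cell did not move as a block. Ski, a corepressor that binds Smads, was at 159 and 176 RPM in males against 73.1 and 60.9 RPM in females and 71.0 and 60.6 RPM at E9.5. Males stood apart from both, above E9.5 by 1.34 ± 0.14 (limma, adjusted p = 1.15e-05), and females were lower than males by 1.31 (adjusted p = 6.75e-05). Ppm1a, a phosphatase that acts on Smads, averaged 60.3 ± 4.68 RPM in female and 106 ± 1.53 RPM in male germ cells (-0.80 ± 0.13, adjusted p = 0.00116). Its level in d4c7, 181 ± 27.0 RPM, was 3.00-fold the female one (1.56 ± 0.13, adjusted p = 1.52e-06). Smurf1, a ubiquitin ligase for Smads, was the gene of these lists that was called higher in d4c7 than in d4c3, at 32.6 and 19.1 RPM against 8.61 and 9.76 RPM (1.35 ± 0.30, adjusted p = 0.0286, and 0.0942 to 0.208 with any 1 of these 4 libraries but d4c7 replicate 2 left out). It was also higher at E12.5 than at E9.5, by 1.51 in males and 1.41 in females.

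Of 10 extracellular antagonist genes 3 were tested, and Nog, Chrd and Grem1 were among those too low. Fstl1, a secreted BMP-binding protein, averaged 105 ± 21.9 RPM at E9.5, against 21.8 ± 6.30 RPM in male and 43.1 ± 9.41 RPM in female germ cells. The male difference was -2.23 ± 0.34 (limma, adjusted p = 0.000191) and the female one -1.27 ± 0.34 (adjusted p = 0.00965, and 0.11 without E9.5 replicate 1). E proteins, the partners that Id proteins hold, had 0 of 3 genes called between the sexes. Tcf3, which encodes E12 and E47, averaged 192 ± 4.66 RPM in male and 190 ± 3.74 RPM in female germ cells. Tcf3 in d4c7, at 99.2 ± 45.3 RPM, was below the male level by 1.02 (adjusted p = 0.0262, and 0.223 without d4c7 replicate 1).

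**Figure D3:**
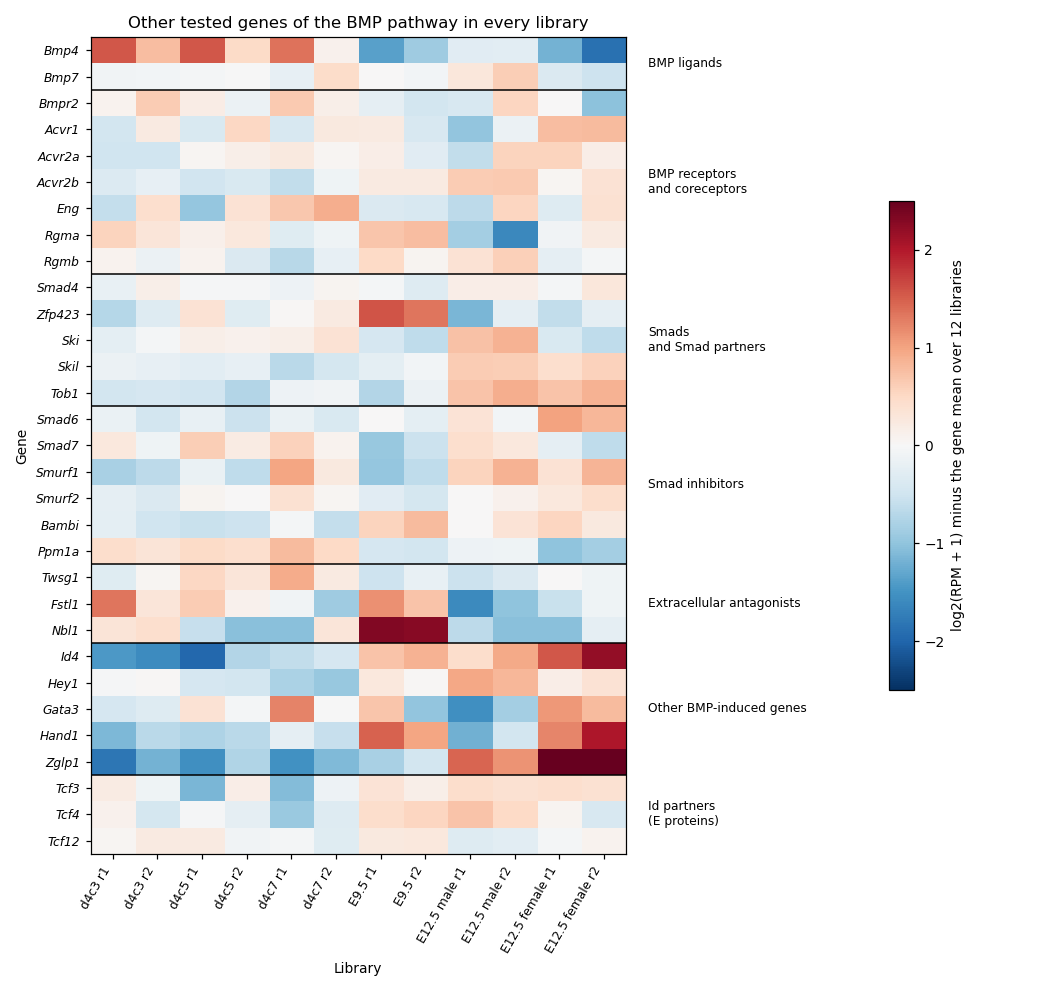
log2(RPM + 1) minus the gene's mean over the 12 libraries for the 31 other tested genes of the pathway, by list (rows) and library (columns); red is above and blue below the gene's mean. Zglp1 and Id4 are red in the female columns and blue in culture, Bmp4 is red in culture, and Ski is red in males.

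Across the 12 libraries Id3 and Msx2 followed each other most closely among the 8 tested genes, with a Pearson r of 0.92 on log2(RPM + 1). Id2 and Msx2 had an r of 0.86, and Id1 and Msx2 one of 0.78. Gata2 followed Id1 least among the targets, with an r of 0.29. Smad1 ran opposite to Id1, with an r of -0.81. These are descriptions over 6 groups of 2 libraries that share depth and group, so they carry no test. Over the 10856 genes tested, Id1 was most like Plagl1 (r = 0.98), an imprinted zinc finger gene, followed by Rhbdl3 among named protein genes (r = 0.96). In culture and males Plagl1 averaged 0.793 to 1.20 RPM and Rhbdl3 0.226 to 0.619 RPM, near or below the level of 3 reads. Those 2 values of r therefore mostly set the E9.5 and female libraries against the rest. Id2 was most like Bend3 (r = 0.93) and Phlda2 (r = 0.92), and Id3 was most like Zfp280c (r = 0.96), Psmd10 (r = 0.93) and Msx2. Msx2 was most like Lrrc34 (r = 0.97), Zfp280c and Phlda2 (r = 0.95 for both). Gata2 was most like Aifm2 (r = 0.97), Tns1 and Zfp462 (r = 0.94 for both).

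**Figure D4:**
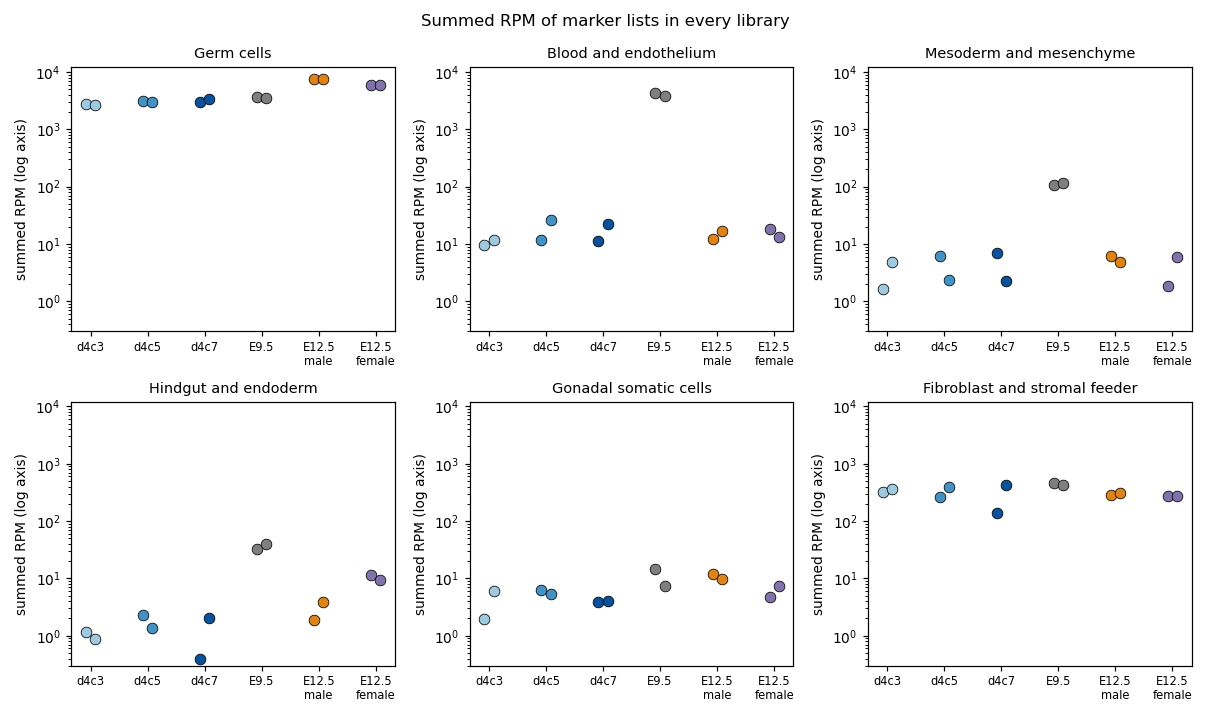
Summed RPM of 6 lists of cell type markers in each library, on a log axis; points are libraries, 2 per group. Germ cell markers are high in all groups, blood, mesoderm and hindgut markers stand out at E9.5, and gonadal somatic markers are lower in E12.5 females than in males.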

How the data were processed

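Per the file headers and labels, the deposited table holds RPM, which the authors scaled to reads assigned to genes. Named in the submitters' processing notes, with no role given, are mm10, TopHat 1.4.1, Cufflinks 2.2.0 and cutadapt 1.3. Reads per library were estimated from the smallest step of the values. Of values worth 20 reads or fewer, 81.8% to 87.4% per library lay within 0.1 of a whole number, so whole reads were not recovered and count tests were not used. Intervals from 0 cover counting error only, since amplified reads are not independent molecules.

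Gene positions and promoters are RefSeq's for GRCm38.p6, the build that mm10 names. Values were tested as log2(RPM + 1) with limma 3.58.1 in R 4.3.3 (a mean per group, all 12 libraries, eBayes with trend, 6 residual and 8.02 prior degrees of freedom), adjusted by Benjamini and Hochberg over 10856 genes; 15362 were left out as low. A difference on this scale understates the change of low genes. The fit was tested on simulated data. The members, lists, tests and alternatives were chosen with earlier results of these data known. Of each list, up to 3 called genes per comparison with the largest change and a higher group mean of at least 10 RPM could be named; some are given only in the counts. For each of the 8 tested members the 3 most correlated genes were sought, predicted genes left out, and those of Bmpr1a, Smad1 and Smad5 are not described. Alternatives were other pseudocounts (0.5 and 5), filters (none, and 10 RPM), median scaling, no trend, the libraries compared alone, a replicate block (also in the cultured libraries alone) and each library left out.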

Additional observations from a re-analysis of the deposited data

Results flagged for a closer look

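For 6 genes the change from E9.5 to E12.5 differed between the sexes. Since both changes start from the same E9.5 libraries, this is the female minus male difference, tested with limma over all 12 libraries. On the log2 scale the female change exceeded the male one by 4.76 for Id1, 3.70 for Gata2, 3.38 for Msx2, 2.38 for Id2 and 1.75 for Id3. For Smad1 the female change minus the male one was -1.43.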

How the results depend on the processing

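Of 776 repeats of the members' differences under other settings, 725 kept their direction and their side of the threshold, 39 lost and 12 gained a call, and 0 changed sign past the threshold. In females against males 5 or 6 members were called in every setting. The 2 members called in d4c7 against d4c3 became 0 without a filter, without a trend and in a fit of the 4 libraries compared, and 0 to 2 with a library left out. The 4 called in females against E9.5 became 1 without a filter and 1 to 2 with a library left out. In d4c5 against d4c3 it was 0 to 1 with a library left out, and the count of 2 in d4c7 against males became 1 in the 4-library fit. Without a filter Msx1 was called between the sexes (1.42, limma, adjusted p = 0.0204) and in males against E9.5 (-1.76, adjusted p = 0.00206). It was also lower in d4c3 than at E9.5 (-2.43, adjusted p = 0.000622) and in d4c7 than in females (-2.09, adjusted p = 0.00127). Its values of 0 in all 6 cultured libraries add no spread to the pooled estimate, so these p-values may be too small.

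With replicate number as a block (replicate block), 6 members were called in females against males and 7, in place of 6, in d4c7 against females; no other count of members moved. In 15 pairs of groups same-numbered libraries correlated at -0.0431 to 0.455 and the 3 pairs over 0.1 were those of the cultured groups (0.116, 0.131 and 0.455). Each comparison has only 2 numbers and the labels name no shared batch, so the numbers were not taken as a pairing. A fit of the 6 cultured libraries with this replicate block, chosen after seeing the data, called 0 members in d4c7 against d4c3 (limma, adjusted p = 0.157 for Id3 and 0.0838 for Msx2) and 0 in d4c5 against d4c3, and over all genes 32 and 0. Over all genes, 298 calls in d4c7 against d4c3 became 0 in the 4-library fit (1084 at an unadjusted p under 0.05), 103 without a filter, 184 without a trend and 31 to 786 with a library left out. For d4c5 against d4c3, 9 (7 higher, 2 lower) became 0 (805 unadjusted), 20 with median scaling (13 higher, 7 lower), 3 without a filter, 22 with the block and 2 to 26. In the 4-library fit 3968 became 2297 for d4c7 against males and 4221 became 2456 against females. With a library left out, 1297 between the sexes became 538 to 567, 4089 and 4069 for males and females against E9.5 became as few as 2509 and 2456, 2574 for d4c3 against E9.5 became as few as 1321, and the lowest counts for d4c7 were 2552 against males and 2807 against females. The causes were not tested. Depth limits Msx1 in culture and in males, at or below the level of 3 reads.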
